A study of Mus musculus with 9 samples.

Results

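The transcription factor NF-κB is held back by a set of proteins, many of which are encoded by genes that NF-κB itself switches on. The IκB proteins bind NF-κB dimers in the cytoplasm and are destroyed when upstream kinases phosphorylate them, while the atypical nuclear IκB proteins act on chromatin as co-regulators. A second arm acts further upstream, on the ubiquitin chains that carry signals from receptors to those kinases. The ubiquitin-editing enzyme A20 and the deubiquitinase CYLD take such chains apart, and the binding partners of A20 described here are adaptors. In fibroblasts the resynthesis of IκBα after its destruction is the textbook case of negative feedback.

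To describe how inhibitors and feedback genes of NF-κB differed between stress intensities, 9 genes were taken from the deposited table by their symbols. These were the cytoplasmic IκB genes Nfkbia, Nfkbib and Nfkbie, the nuclear IκB genes Nfkbiz and Bcl3, and the ubiquitin-related genes Tnfaip3, Tnip1, Tnip2 and Cyld. All 9 were found among the 35275 genes listed, each in a single row, and all 9 passed the filter on low counts together with the rest of the 13082 genes tested. Wild type C57Bl/6 mouse embryonic fibroblasts (MEFs) grew in iso-osmolar medium at 300 mOsm or were exposed for 3 h to medium with added sucrose, at 500 mOsm (200 mM sucrose, low-intensity stress) or 600 mOsm (300 mM sucrose, high-intensity stress). All groups shared the same DMEM with serum, no gene was altered, and poly-T enriched RNA was sequenced as 3 libraries per treatment, 9 in all. Nothing in the labels says whether these were separate cultures, so the tests measure the spread between libraries, which may be technical.

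Library totals ran from 21716042 to 26740832 counts, and a count of 3 in a library, taken as the smallest signal, stood for between 0.112 and 0.138 CPM (counts scaled to the library total). This limit covers counting error alone. Of 10 fibroblast markers, 8 had a mean FPKM (counts scaled to gene length and library total) above 1 in every treatment, and Dcn, encoding decorin, stayed under 0.1. Of 8 leukocyte markers chosen, 7 were found among the genes listed. Of these 7, 3 had a mean FPKM above 1 in every treatment, while Ptprc and Cd3e stayed under 0.1. The summed FPKM of the 7 lay between 17.8 and 18.9 in iso-osmolar medium, 11.9 and 13.1 at 500 mOsm, and 14.5 and 16.9 at 600 mOsm. The summed FPKM of 4 endothelial markers was 0.202 to 0.246 in iso-osmolar medium, 3.36 to 3.83 at 500 mOsm and 0.577 to 0.901 at 600 mOsm, and that of 5 epithelial markers was 0.0317 to 0.237, 1.08 to 1.49 and 0.117 to 0.275. Genes with a count also numbered more at 500 mOsm, 18920 to 19222 per library, than in iso-osmolar medium (16452 to 16871) or at 600 mOsm (17846 to 18031). Whether the marker sums are part of that wider difference was not tested. The part of other cell types in the results was not tested, and in bulk RNA fewer cells with a transcript and less of it per cell cannot be told apart.

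Under low-intensity stress the 9 genes, which include the co-activator gene Nfkbiz, split. Nfkbia, Nfkbiz, Tnfaip3 and Cyld rose against iso-osmolar medium, which is 4 of the 9 genes where 13.2% of all genes tested rose. Nfkbie and Tnip2 fell, which is 2 of the 9 where 14.8% of all genes fell (28% changed in either direction), and Nfkbib, Bcl3 and Tnip1 did not pass the test (edgeR's quasi-likelihood test, Benjamini-Hochberg adjusted p under 0.05). Under high-intensity stress 4 of the 9 genes, Nfkbia, Nfkbie, Nfkbiz and Tnfaip3, fell below their iso-osmolar level, where 20% of all genes tested were lower (35.1% in either direction). No gene of the 9 was higher at 600 mOsm by edgeR, 1 was at an unadjusted p under 0.05, 0 were by DESeq2 and 0 by limma on log2 FPKM, against a share of 15.1% of all genes by edgeR. Between the intensities Nfkbia, Nfkbiz and Tnfaip3 were lower at 600 than at 500 mOsm, 3 of the 9 where 17.2% of all genes were lower (29.1% in either direction). Nfkbie alone was higher, 1 of the 9 where 11.9% of all genes were higher. The median log2 fold change of the 9 genes was -0.0022 at 500 mOsm, -0.41 at 600 mOsm and 0.09 between the intensities, beside 0.01, 0.0075 and 0.0061 over all genes tested. The 9 genes were chosen with earlier results of these data known, so their shares beside those of all genes are descriptive only.

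**Figure D1:**
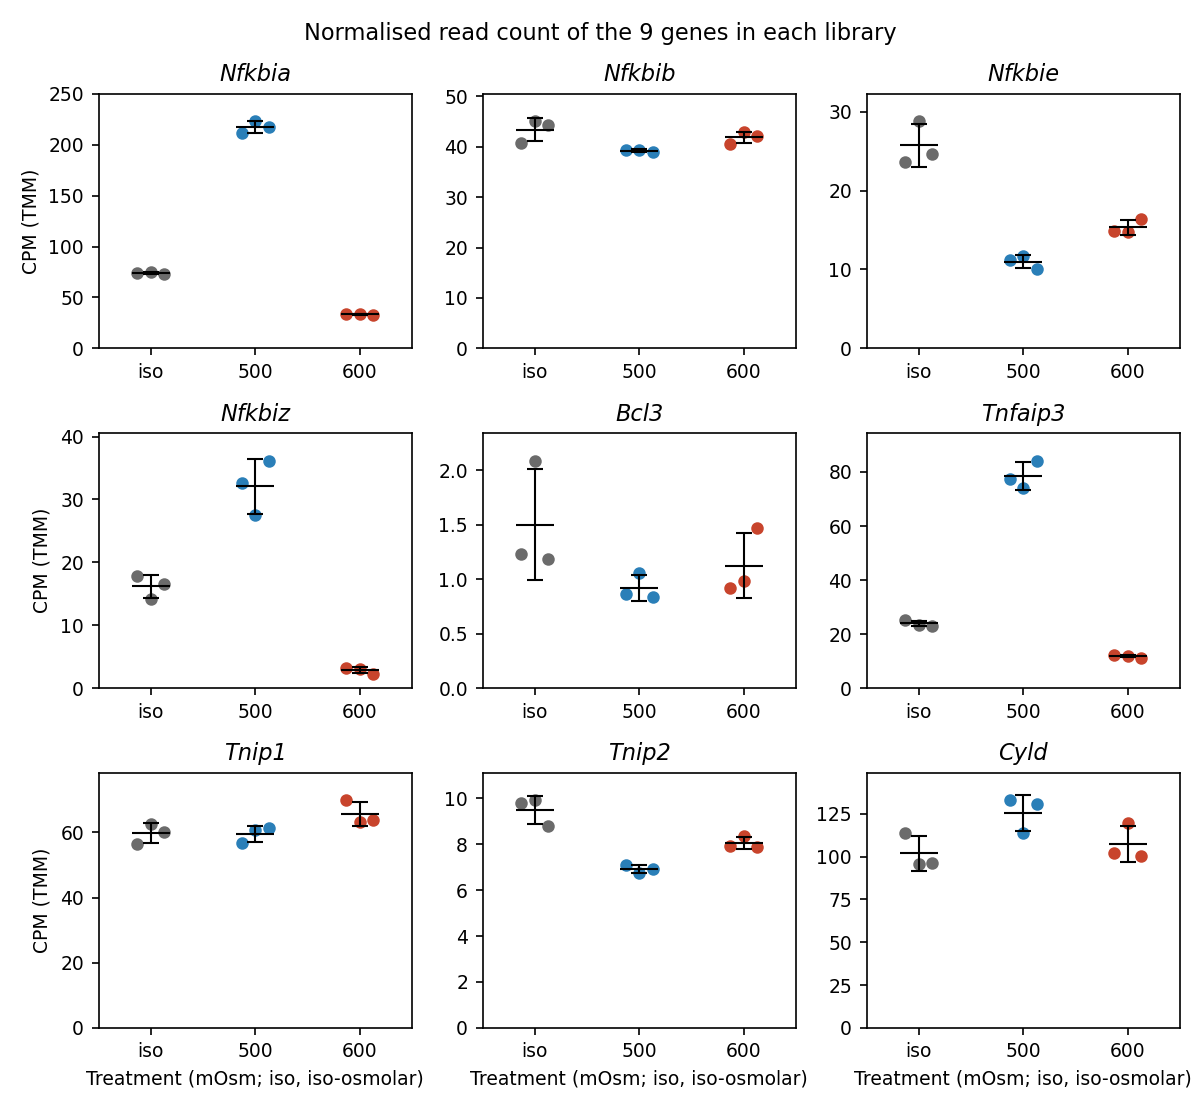
TMM-normalised CPM (linear axes from 0) of each of the 9 genes in every library, by treatment in mOsm; points are libraries, the long bar is the mean and the whiskers are the SD of 3 libraries. Nfkbia, Nfkbiz and Tnfaip3 were highest at 500 mOsm and lowest at 600 mOsm with no overlap between treatments, while Nfkbie was highest in iso-osmolar medium.

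Nfkbia encodes IκBα, the inhibitor that retains p65-containing dimers in the cytoplasm and is the quickest to be rebuilt. In mm10 the gene spans chr12:55489411-55492647 (minus strand). Its normalised read count in the iso-osmolar libraries was 74.0, 75.5 and 73.4 CPM. At 500 mOsm it was 212, 223 and 217 CPM, and at 600 mOsm 33.5, 33.4 and 33.1 CPM. The treatments did not overlap. The SD was 1.06 CPM in iso-osmolar medium, 5.93 CPM at 500 mOsm and 0.195 CPM at 600 mOsm (n = 3 each). The values at 600 mOsm rest on 800, 745 and 856 counts, and an SD of 3 values is itself imprecise. Against the iso-osmolar libraries Nfkbia was 2.92-fold higher at 500 mOsm and 2.23-fold lower at 600 mOsm. Between the intensities it differed 6.52-fold, a log2 fold change of -2.71 (95% interval -2.81 to -2.60) and an adjusted p of 1.36e-12 from edgeR. The 250 bases before its RefSeq start, which hold a match to the κB motif, are shown here because this gene had the highest expression per length of the 9 at 500 mOsm. The sequence is chr12:55492648-55492897 on the minus strand of GRCm38.p6 from RefSeq, and the capitals mark the κB match.
Nfkbia: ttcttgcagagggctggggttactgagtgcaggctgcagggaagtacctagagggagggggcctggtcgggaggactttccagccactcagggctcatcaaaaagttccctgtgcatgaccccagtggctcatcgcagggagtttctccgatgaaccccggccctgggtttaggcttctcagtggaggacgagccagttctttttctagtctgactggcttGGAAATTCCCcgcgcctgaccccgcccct

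Nfkbib encodes IκBβ, which binds much the same dimers as IκBα but is classically rebuilt more slowly. Its libraries ran from 40.8 to 45.1 CPM in iso-osmolar medium, 38.9 to 39.4 CPM at 500 mOsm and 40.6 to 42.8 CPM at 600 mOsm. It did not pass the test in any comparison. The log2 fold change was -0.15 at 500 mOsm (95% interval -0.27 to -0.02, adjusted p = 0.0877 from edgeR), -0.05 at 600 mOsm (-0.18 to 0.08) and 0.09 between the intensities (-0.04 to 0.22), intervals that are not adjusted for the number of genes. Without replicate 1 of the iso-osmolar libraries the value at 500 mOsm was -0.19 and passed 0.05 (adjusted p = 0.0459 from edgeR). Nfkbib shares 42 exonic bases with Sirt2 (median count 1306) and 314 with Ccer2 (median count 0), both on the opposite strand. Whether strand was used in counting is not given in the sources used here.

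Nfkbie encodes IκBε, the third cytoplasmic inhibitor, which in textbook accounts is induced late and acts out of phase with IκBα. It moved against Nfkbia at 500 mOsm. Its values were 23.6, 28.8 and 24.7 CPM in the iso-osmolar libraries, 11.2, 11.6 and 10.1 CPM at 500 mOsm, and 14.8, 14.8 and 16.4 CPM at 600 mOsm. Every stressed library lay below every iso-osmolar library, and every 500 mOsm library lay below every 600 mOsm library. Nfkbie was 2.34-fold lower at 500 mOsm (log2 fold change -1.23, SE 0.0976, adjusted p = 1.08e-06) and 1.68-fold lower at 600 mOsm (log2 fold change -0.75, SE 0.0954, adjusted p = 7.46e-05 from edgeR). It was 1.40-fold higher at 600 than at 500 mOsm (log2 fold change 0.48, adjusted p = 0.00289 from edgeR).

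Seen as a pool, the transcripts of the 3 cytoplasmic IκB genes changed in amount and in make-up. Their summed FPKM was 77.3, 81.0 and 79.0 in iso-osmolar medium. At 500 mOsm the sum was 158, 164 and 163, and at 600 mOsm 46.6, 48.5 and 46.9. Nfkbia made up 59.8% ± 1.41 of the sum in the iso-osmolar libraries, a share that was 85.4% ± 0.372 at 500 mOsm and 44.2% ± 0.803 at 600 mOsm (SD, n = 3 each). Nfkbib, whose own level moved little, therefore held 26.7% of the pool in the iso-osmolar libraries, 11.8% at 500 mOsm and 42.5% at 600 mOsm. Nfkbie held 13.5% in the iso-osmolar libraries, 2.81% at 500 mOsm and 13.3% at 600 mOsm. For the sum and for the share of Nfkbia the 3 treatments did not overlap, and each of the 6 comparisons gave p = 0.1 in an exact two-sided permutation test, the smallest that 3 libraries against 3 allow. Adjustment by the Benjamini-Hochberg method over the 6 leaves these at 0.1.

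**Figure D2:**
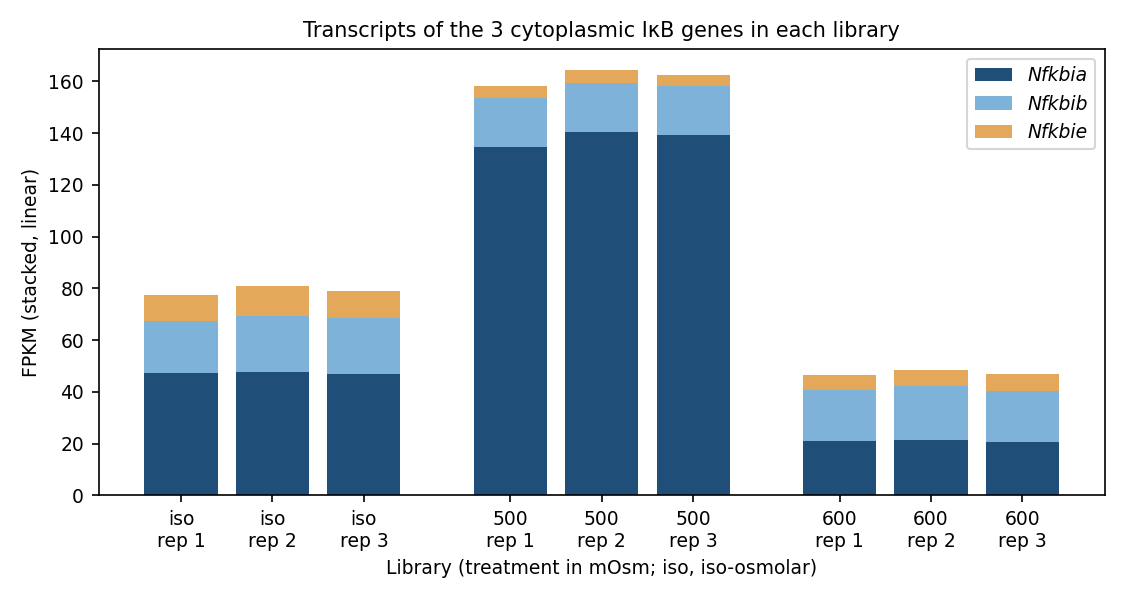
Stacked FPKM (linear axis from 0) of Nfkbia, Nfkbib and Nfkbie in each of the 9 libraries, grouped by treatment in mOsm. The stacks reach 77.3 to 81.0 in iso-osmolar medium, 158 to 164 at 500 mOsm and 46.6 to 48.5 at 600 mOsm, and the Nfkbia segment accounts for most of the change.

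Of the nuclear IκB genes, Nfkbiz showed the largest change of the 9 genes at 600 mOsm. It encodes IκBζ, a co-activator needed for a secondary wave of inflammatory genes, Il6 among them, and its short-lived mRNA is a known target of decay factors. Its values were 17.8, 14.2 and 16.6 CPM in iso-osmolar medium, 32.7, 27.5 and 36.2 CPM at 500 mOsm, and 3.26, 3.09 and 2.28 CPM at 600 mOsm. The lowest 500 mOsm library was above the highest iso-osmolar library, and all 3 libraries at 600 mOsm were far below both. At 600 mOsm these values rest on 78, 69 and 59 counts. Nfkbiz was raised 1.98-fold at 500 mOsm (log2 fold change 0.99, SE 0.124, adjusted p = 5.72e-05) and 5.64-fold lower at 600 mOsm (log2 fold change -2.50, SE 0.155, adjusted p = 1.57e-07 from edgeR). Only 42 of the 13082 genes tested had a lower fold change at 600 mOsm. Between the intensities the difference was 11.2-fold (log2 fold change -3.48, 95% interval -3.81 to -3.16). On the log2(FPKM + 1) scale of limma, which understates changes of low genes, the differences were -1.55 at 600 mOsm and -2.38 between the intensities, and both passed 0.05. Il6 itself had at most 1 count in any library and was not tested.

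Bcl3 encodes a nuclear IκB protein that joins p50 or p52 homodimers. It was scarcely expressed, with 21 to 51 counts per library. Its levels ran from 1.19 to 2.09 CPM in iso-osmolar medium, 0.839 to 1.06 CPM at 500 mOsm and 0.921 to 1.47 CPM at 600 mOsm. The upper iso-osmolar value came from replicate 2 alone. Bcl3 did not pass the test in any comparison, and its log2 fold change of -0.71 at 500 mOsm had a wide interval, from -1.32 to -0.10 (adjusted p = 0.0825 from edgeR). It passed 0.05 there when no filter was put on low counts (adjusted p = 0.0337 from edgeR), and without iso-osmolar replicate 2 the log2 fold change was -0.39 (adjusted p = 0.362 from edgeR). Bcl3 shares 161 exonic bases with the antisense gene Gm16175, whose median count was 0.

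Tnfaip3 encodes A20, which edits ubiquitin chains on signalling proteins such as RIPK1 and is among the most widely induced NF-κB targets. The gene spans chr10:19000910-19015657 (minus strand, mm10). Its values were 25.2, 23.4 and 23.1 CPM in iso-osmolar medium, 77.2, 74.1 and 84.2 CPM at 500 mOsm, and 12.1, 12.04 and 11.3 CPM at 600 mOsm. The treatments did not overlap and stood in the same order as for Nfkbia. Tnfaip3 rose 3.28-fold at 500 mOsm and fell 2.02-fold at 600 mOsm, and it was 6.64-fold lower at 600 than at 500 mOsm. The interval of its log2 fold change between the intensities, -2.89 to -2.57, contained the value of Nfkbia, -2.71. Against iso-osmolar medium its interval at 600 mOsm, -1.18 to -0.85, also contained the value of Nfkbia, -1.16. At 500 mOsm the interval of Tnfaip3, 1.57 to 1.86, lay above the value of Nfkbia, 1.55.

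The partners of A20 did not follow it. Tnip1 and Tnip2 encode the ABIN adaptors, which bind A20 and linear ubiquitin chains. Tnip1 ran from 56.4 to 62.5 CPM in iso-osmolar medium, 56.8 to 61.4 CPM at 500 mOsm and 63.3 to 69.9 CPM at 600 mOsm, and it did not pass the test in any comparison. Its log2 fold change was -0.0022 at 500 mOsm (95% interval -0.14 to 0.13) and 0.14 at 600 mOsm (0.0024 to 0.27, adjusted p = 0.106 from edgeR). Tnip2 was less abundant, at 9.79, 9.91 and 8.79 CPM in iso-osmolar medium, 7.09, 6.75 and 6.90 CPM at 500 mOsm, and 7.91, 8.37 and 7.89 CPM at 600 mOsm. Each 500 mOsm library of Tnip2 lay below every other library. Tnip2 was 1.37-fold lower at 500 mOsm (log2 fold change -0.46, SE 0.0946, adjusted p = 0.00263 from edgeR), while its log2 fold change of -0.24 at 600 mOsm gave an adjusted p of 0.0672 by the same test. That value passed 0.05 in limma on log2(FPKM + 1), with an adjusted p of 0.0445.

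Cyld encodes a deubiquitinase that removes lysine-63-linked and linear chains independently of A20. It was the most counted of the 9 genes in iso-osmolar medium, at 114, 95.7 and 96.3 CPM, and stood at 133, 114 and 131 CPM at 500 mOsm and 102, 119 and 100.2 CPM at 600 mOsm. The 500 mOsm libraries lay above the iso-osmolar ones by a narrow margin, and the 600 mOsm libraries overlapped both. The rise at 500 mOsm was 1.23-fold (log2 fold change 0.30, SE 0.0871, adjusted p = 0.0195 from edgeR). Leaving out iso-osmolar replicate 2 or 3, or 500 mOsm replicate 1 or 3, ended this call, with adjusted p-values of 0.0770, 0.0771, 0.0753 and 0.0628 from edgeR, and limma on log2 FPKM gave 0.0551 with 1 added and 0.0507 with 0.1 added. Between the intensities the log2 fold change was -0.23 (adjusted p = 0.0662 from edgeR). It passed 0.05 without iso-osmolar replicate 1, 500 mOsm replicate 2 or 600 mOsm replicate 2, with values of -0.23, -0.29 and -0.31, and with no filter on low counts, with a value of -0.21.

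**Figure D3:**
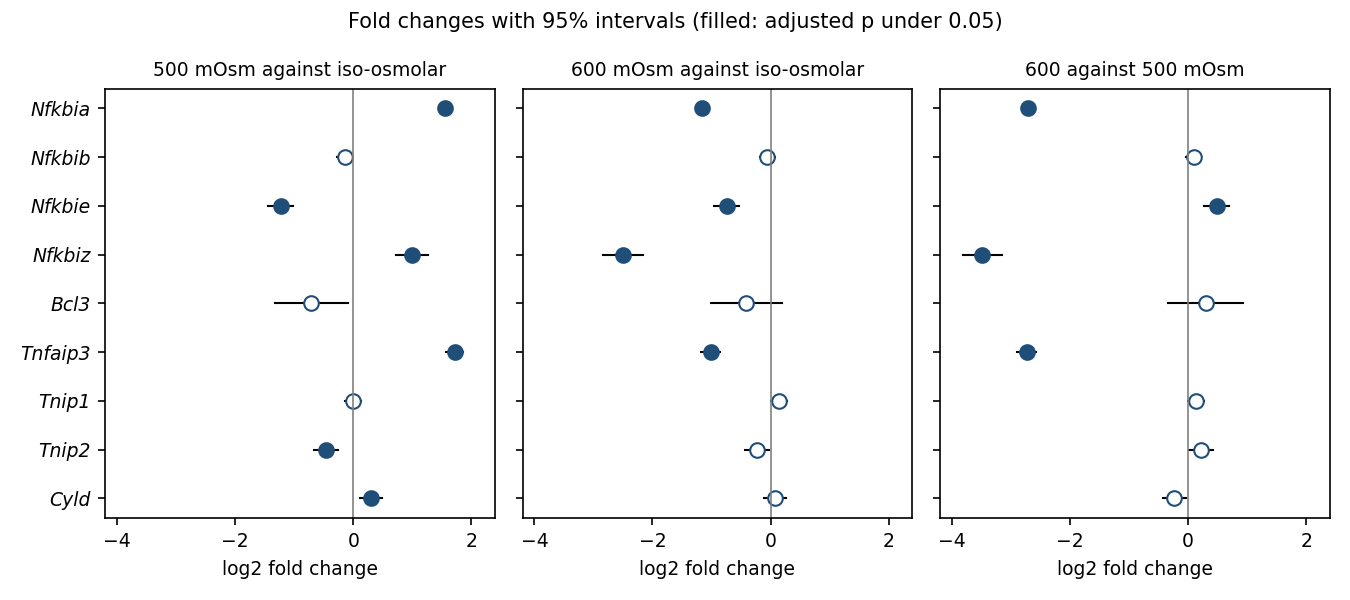
Log2 fold changes of the 9 genes in the 3 comparisons, with 95% intervals not adjusted for the number of genes (hidden behind the point where narrow); filled points passed an adjusted p of 0.05 in edgeR. Nfkbia, Nfkbiz and Tnfaip3 sit to the right of 0 at 500 mOsm and to the left at 600 mOsm, and Nfkbie is left of 0 at both intensities.

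Because CPM does not correct for gene length, levels were compared between genes in FPKM. In iso-osmolar medium Nfkbia was the most abundant at 47.3 ± 0.257 FPKM (SD, n = 3). Nfkbib at 21.2 ± 0.985 and Tnip1 at 20.2 ± 0.870 FPKM overlapped with each other. Cyld followed at 12.8 ± 1.35 FPKM and Nfkbie at 10.7 ± 1.02 FPKM, with ranges that just missed each other. Tnip2 at 4.55 ± 0.272, Nfkbiz at 3.96 ± 0.479 and Tnfaip3 at 3.88 ± 0.200 FPKM each overlapped with the next, and Bcl3 was last at 0.814 ± 0.266 FPKM.

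At 500 mOsm the order changed in the middle. Nfkbia reached 138 ± 3.12 FPKM, Tnfaip3 came next after Cyld at 12.7 ± 0.966 FPKM and Nfkbiz after it at 7.83 ± 1.15 FPKM, ahead of Nfkbie at 4.54 ± 0.285 FPKM. Only Tnip1 and Nfkbib overlapped among neighbours in the order. At 600 mOsm Tnip1 at 21.9 ± 1.25, Nfkbia at 20.9 ± 0.474 and Nfkbib at 20.1 ± 0.768 FPKM formed a group in which neighbours overlapped. Nfkbiz dropped to 0.695 ± 0.135 FPKM and overlapped with Bcl3 at 0.601 ± 0.150 FPKM. The 9 genes together summed to 125 ± 1.303 FPKM in iso-osmolar medium, 222 ± 4.04 FPKM at 500 mOsm and 89.5 ± 2.85 FPKM at 600 mOsm (SD, n = 3 each).

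**Figure D4:**
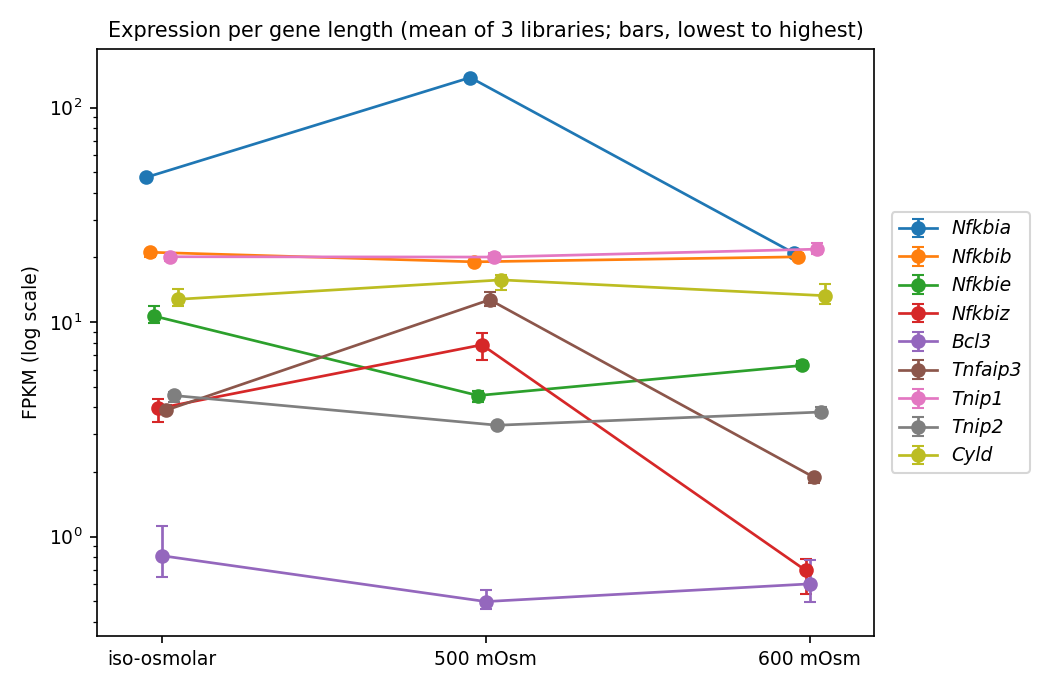
FPKM (log axis) of the 9 genes by treatment; points are means of 3 libraries, bars run from the lowest to the highest library and lines join the same gene. Nfkbia falls from 138 FPKM at 500 mOsm to 20.9 FPKM at 600 mOsm, next to Tnip1 and Nfkbib, and Nfkbiz falls to the level of Bcl3.

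The likeness of expression patterns was measured as the root mean square difference of log2 CPM over the 9 libraries, after each gene was centred on its own mean, over the other 10381 genes whose mean log2 CPM was 1 or more. It is a description of these libraries, which share their treatments and totals. Nfkbia and Tnfaip3 were each the closest gene to the other, with a difference of 0.10. The next closest to Nfkbia were Cxcl1, a neutrophil-attracting chemokine (0.20), and Smad7, an inhibitor of TGF-β signalling (0.20). Cxcl1 stood at 25.003 CPM in iso-osmolar libraries, 72.5 CPM at 500 mOsm and 9.85 CPM at 600 mOsm, and Smad7 at 118, 472 and 58.8 CPM. After Nfkbia, the closest to Tnfaip3 were Slco4a1, an organic anion transporter (0.17), and Smad7 (0.17). The closest to Nfkbiz were the lincRNA Gm26532 (0.17), the immediate early gene Egr2 (0.37) and the connexin gene Gja4 (0.41). Gm26532 stood at 4.46, 9.80 and 0.820 CPM. For Cyld, with its small changes, the closest were Vps13d (0.06), Chpt1 (0.06) and Amd1 (0.06), and Chpt1 shares 660 exonic bases with Sycp3 on the opposite strand.

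Promoter sequences were then searched for the κB motif, the NF-κB binding consensus with a G-rich start and a C-rich end, on both strands of the 250 bases before each RefSeq start. Of the 9 genes, 8 matched the RefSeq table by symbol, all but Nfkbiz, with 9 windows since Tnfaip3 has 2 starts. A κB match stood before the start of Nfkbia, Nfkbie, Tnfaip3, Tnip1 and Cyld, 5 of these 8 genes, while 8.23% of all 27025 genes in the table hold one. Bcl3 had a match in the 50 bases after its start, where 1.36% of genes hold one, and Nfkbib and Tnip2 had none in either window. The genes with a match include the strongly raised Nfkbia and Tnfaip3, the lowered Nfkbie and the barely moved Tnip1. Whether the letters of a match go with the response of its gene was not tested. The matches nearest the start are printed in capitals within at most 30 bases, 5′ to 3′ on the strand of the gene. They lie at chr12:55492657-55492686 for Nfkbia, chr10:19015411-19015432 for Tnfaip3, chr17:45555584-45555613 for Nfkbie, chr11:54962978-54963007 for Tnip1 and chr8:88696863-88696892 for Cyld (GRCm38.p6, with Nfkbie and Cyld on the plus strand).
Nfkbia: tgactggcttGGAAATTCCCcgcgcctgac
Tnfaip3: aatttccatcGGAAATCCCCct
Nfkbie: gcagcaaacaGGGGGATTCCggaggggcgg
Tnip1: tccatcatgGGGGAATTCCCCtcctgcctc
Cyld: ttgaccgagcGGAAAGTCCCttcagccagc

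The match of Nfkbia ended 20 bases before the start and that of Tnfaip3 3 bases before it, with a further match 116 bases before the same start of Tnfaip3. In Tnip1 several matches on both strands overlap and are shown as a single capital run. The match of Nfkbie stood 97 bases and that of Cyld 146 bases before the start. The consensus of the tonicity-responsive element, bound by TonEBP (the Rel family factor of the osmoadaptive response), was found before the start of Nfkbia alone among these 8 genes, and 5.01% of all genes in the table hold it. Nfkbia held 2 such matches, of which the nearer covers the whole κB match. The letters TGGAAA, which open that consensus, were present before the start of Nfkbia and Tnfaip3, and in 20.9% of all genes. A match is a description of letters, and binding was not measured here.

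The rest of the pathway is given for context from lists of genes chosen by function. Of 32 genes for NF-κB subunits, receptors and activating kinases, all were tested, and 2 rose and 8 fell at 500 mOsm, where 13.2% of all genes rose and 14.8% fell. At 600 mOsm 3 rose and 12 fell, where 15.1% of all genes rose and 20% fell. Between the intensities 3 were higher and 8 lower at 600 mOsm, where 11.9% and 17.2% of all genes were. For this list the median log2 fold change was -0.08, -0.15 and -0.09 in these comparisons. Nfkb1, encoding p105 and p50, stood at 178 ± 7.16, 148 ± 8.46 and 105 ± 2.26 CPM (SD, n = 3 each) at 300, 500 and 600 mOsm, and fell under both stresses. Traf2, an adaptor of TNF receptors, rose in both, at 60.2 ± 1.18, 95.03 ± 1.42 and 71.3 ± 2.79 CPM. Map3k14, the kinase NIK of the non-canonical arm, fell at 500 mOsm (36.7 ± 1.24 to 24.1 ± 1.29 CPM) and stood at 40.8 ± 2.57 CPM at 600 mOsm. Map3k14 shares 135 exonic bases with 1700028N14Rik on the same strand. Tab1, a partner of the kinase TAK1, fell at 500 mOsm and rose at 600 mOsm, at 31.5 ± 1.36, 26.0 ± 2.53 and 40.7 ± 1.84 CPM.

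Of 17 other negative regulators and partners of the 9 genes, 16 were tested and Tnip3 had at most 1 count. At 500 mOsm 2 rose and 7 fell (13.2% and 14.8% of all genes), and at 600 mOsm 1 rose and 8 fell (15.1% and 20% of all genes). Between the intensities 1 was higher and 6 were lower at 600 mOsm (11.9% and 17.2% of all genes), and the list's median log2 fold change was -0.0058, -0.31 and -0.02 in turn. Zc3h12a, encoding the ribonuclease Regnase-1 that cuts inflammatory mRNAs, followed the pattern of Nfkbia at smaller size. It rose at 500 mOsm from 6.68 ± 0.549 to 10.7 ± 1.17 CPM and fell at 600 mOsm to 4.77 ± 0.689 CPM (log2 fold change -0.48, adjusted p = 0.0146 from edgeR). Traf1 fell at both intensities, at 10.0 ± 1.25, 6.01 ± 1.02 and 3.43 ± 0.140 CPM. Birc2, a ubiquitin ligase of the receptor complex, also fell at both, at 31.8 ± 3.03, 19.95 ± 2.93 and 24.7 ± 0.111 CPM.

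Of 24 inflammatory target genes of NF-κB, 14 were tested. At 500 mOsm 7 rose and 2 fell (13.2% and 14.8% of all genes). At 600 mOsm 3 rose and 3 fell, shares near those of 15.1% and 20% over all genes. Between the intensities 3 were higher and 7 lower at 600 mOsm (11.9% and 17.2% of all genes), and the list's median log2 fold change was 0.38, 0.0046 and -0.42 in turn. Cxcl2 and Mmp9 are counted among the 7 that rose and the 7 that were lower. Cxcl2, at 0.0409, 1.31 and 0.109 CPM in iso-osmolar, 500 and 600 mOsm libraries, passed the low-count filter only through the 500 mOsm libraries. Its direction was thus set by the filter. Mmp9 was also low, at 0.443 ± 0.129, 0.959 ± 0.148 and 0.399 ± 0.0773 CPM. Ccl2, a monocyte-attracting chemokine, stood at 9.64 ± 0.933, 38.0 ± 2.15 and 9.49 ± 0.279 CPM, so that it rose at 500 mOsm and had a log2 fold change of -0.02 at 600 mOsm (adjusted p = 0.866 from edgeR). Ptgs2, encoding cyclooxygenase-2, rose at 500 mOsm and fell at 600 mOsm, at 156 ± 10.7, 229 ± 34.8 and 50.8 ± 6.91 CPM. Irf1, an interferon regulatory factor, moved the opposite way, at 40.4 ± 0.448, 21.4 ± 0.409 and 53.8 ± 1.77 CPM, and shares 135 exonic bases with Gm17334 on the opposite strand. Tnfrsf9 rose at 600 mOsm, from 14.4 ± 0.802 to 17.5 ± 0.176 CPM.

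**Figure D5:**
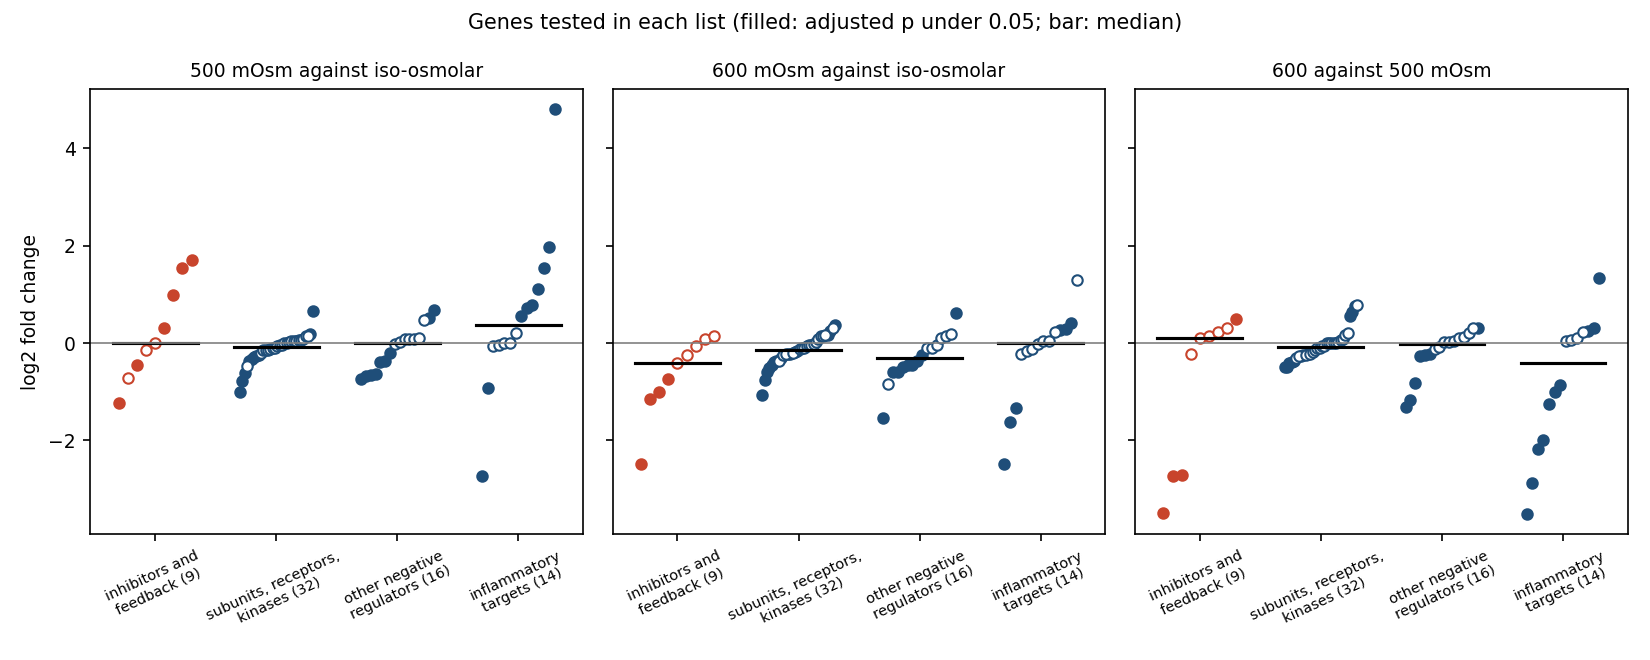
Log2 fold change of every gene tested in the 4 lists, by comparison, sorted within each list; filled points passed an adjusted p of 0.05 in edgeR and the bar is the median. Among the 9 inhibitors and feedback genes (red) the 3 genes under -2 between the intensities are Nfkbiz, Tnfaip3 and Nfkbia, and no gene of the subunit list passes -1 there.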

How the data were processed

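The authors deposited 1 table in which each gene has a whole-number read count per library, without normalization, and an FPKM made from it. The deposited FPKM equalled the count divided by the listed gene length and the library total for 100.0% of values (tolerance 0.1%). Reads were aligned to mm10, and the submitters' processing notes name STAR and CASAVA 1.8, while the counting tool and its annotation are not given in the sources used here. The table's own fold changes and p-values were not used. Of its per-library columns, 0 matched no sample.

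Counts were normalized by TMM and tested with edgeR 4.0.16 (quasi-likelihood test) in R 4.3.3, all 9 libraries in one fit, with filterByExpr and Benjamini-Hochberg adjustment over the 13082 genes tested. The common biological coefficient of variation was 0.0756. SEs were derived from the F statistic. The test was tried on simulated counts. DESeq2 1.42.0 and limma 3.58.1 (log2 FPKM) were alternatives. Genes named beside the 9 are the 3 of most like pattern for Nfkbia, Tnfaip3, Nfkbiz and Cyld, and up to 2 per direction and list with the smallest p between 600 and 500 mOsm. Il6, Tnip3, Cxcl2 and Mmp9 were named after their values were seen. The members and lists were chosen with earlier results of these data known. Exonic overlaps come from GENCODE vM21.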

Additional observations from a re-analysis of the deposited data

How the results depend on the processing

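The counts of genes called among the 9 changed by more than 1.5 times under a single alternative, which asked for a log2 fold change of 1 or more in size. It left 2 genes higher and 1 lower at 500 mOsm, and 0 higher between the intensities. Leaving out each library in turn, 3 to 4 genes were higher and 2 to 3 lower at 500 mOsm, 0 were higher and 4 lower at 600 mOsm, and 1 was higher and 3 to 4 lower at 600 than at 500 mOsm. Over all genes tested that fold requirement left 1122, 742 and 857 calls in place of 3659, 4594 and 3810, and an adjusted p under 0.01 left 2846 at 600 mOsm and 2352 between the intensities.

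Of the single-gene fold changes recomputed, 468 kept their direction and call, 6 lost and 8 gained a call, and 4 changed sign, none of which had been called. Tnip1 at 500 mOsm became 0.011 with at least 10 counts in every library, and ran from -0.044 to 0.031 over the left-out libraries (above 0 without iso-osmolar replicate 2 or 500 mOsm replicate 1). Cyld at 600 mOsm ran from -0.0096 (without 600 mOsm replicate 2) to 0.16. Adding 1 to the FPKM moved the log2 fold change of Nfkbiz at 600 mOsm from -2.50 to -1.55. The cause of these changes was not tested.

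Libraries of different treatments share replicate numbers. Their deviations correlated with r from -0.590 to 0.513 (9 same-numbered pairs over 9801 genes). The mean r was -0.213 for these pairs and 0.109 for the 18 pairs of unlike number, which ran from -0.308 to 0.538. The highest of these was iso-osmolar replicate 3 with 500 mOsm replicate 1. Whether libraries of unlike number shared a source of spread was not tested, and none was fitted. Replicate 2 of the iso-osmolar and of the 500 mOsm libraries correlated best with each other (0.513). However, 0 of 9 libraries correlated best with its own number in both other treatments, so the number was not taken as a pairing. When the number was nonetheless fitted as a block, 4 genes were higher and 2 lower at 500 mOsm, 0 higher and 4 lower at 600 mOsm, and 1 higher and 3 lower between the intensities. Bcl3 had the fewest counts of the 9 genes, 21 to 51 per library.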
